A study of Homo sapiens with 2 samples.

Results

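Small nucleolar RNA host genes are transcribed into RNAs whose introns are processed into small nucleolar RNAs (snoRNAs), while the spliced exons remain as a host transcript that in most of these genes codes for no protein. The 10 genes described here are GAS5, SNHG1, SNHG3, SNHG5, SNHG6, SNHG7, SNHG8, SNHG12, SNHG15 and ZFAS1. They were taken by symbol from the deposited tables of 27685 genes and 63714 transcripts, in which all 10 were listed, and ribosomal protein genes served as their background. RNA was sequenced from untreated H2087 cells and untreated H596 cells, both established human cell lines labelled as lung adenocarcinoma, kept in the same RPMI medium with fetal bovine serum. Each cell line had 1 library, prepared with a stranded kit that selects polyadenylated RNA, which leaves every value without replicate error and allows no test between the cell lines. Libraries were deep, with a total estimated count of 46961500 for H2087 and 55387847 for H596. Levels are given as FPKM, the estimated number of fragments scaled to transcript length and to library size.

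Most snoRNAs guide chemical modification of ribosomal RNA. The C/D box class, named SNORD, directs ribose methylation together with fibrillarin, and the H/ACA box class, named SNORA, directs pseudouridylation together with dyskerin. In vertebrates nearly all of them are cut from introns of host genes, many of which also encode ribosomal proteins or translation factors. Several noncoding hosts, GAS5 and SNHG1 among them, begin with a terminal oligopyrimidine (TOP) tract as ribosomal protein mRNAs do, and their spliced RNAs carry short reading frames and are degraded by nonsense-mediated decay (NMD). Host transcripts are often studied in tumors, lung cancer included, as long noncoding RNAs in their own right.

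Markers of the labelled tumor type differed between the libraries. NKX2-1, the transcription factor of lung adenocarcinoma, had an FPKM of 110 in H2087 but 0.508 in H596. Napsin A (NAPSA) was at 21.9 and 0.0645, whereas keratin KRT7 was high in both, at 791 and 608. SFTPB, another adenocarcinoma marker, was low in both, at 0.123 in H2087 and 0 in H596. The squamous factor TP63 was at 0.183 in H2087 and 55.2 in H596, and KRT5 was listed at 0 in H2087 and at 106 in H596. H596 therefore lacked NKX2-1 and NAPSA at any sizeable level, and its label was used here only as the name of the cell line. The part of this difference in the values below was not tested.

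The 10 genes carry 34 snoRNA rows in the deposited tables, of which 25 are C/D and 9 are H/ACA snoRNAs. GAS5 holds 11, SNHG1 holds 8, SNHG12 holds 4, ZFAS1 holds 3, and SNHG5 and SNHG7 hold 2 each, while the other 4 genes hold 1. The sequences below are those of the snoRNA with the most counts, SNORD47, of a second GAS5 snoRNA with both boxes, SNORD44, of both snoRNAs of SNHG5, the host at least 2-fold higher in H596, and of the single snoRNA of SNHG3. They were read from hg19 at the deposited positions, 5′ to 3′ on the strand of the host, with the letters that match a box motif in capitals.
SNORD47 (in GAS5, chr1:173833507-173833583, minus strand): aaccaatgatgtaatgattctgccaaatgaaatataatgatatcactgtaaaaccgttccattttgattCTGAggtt
SNORD44 (in GAS5, chr1:173835106-173835166, minus strand): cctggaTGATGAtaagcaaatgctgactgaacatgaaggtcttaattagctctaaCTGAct
SNORD50A (in SNHG5, chr6:86387012-86387086, minus strand): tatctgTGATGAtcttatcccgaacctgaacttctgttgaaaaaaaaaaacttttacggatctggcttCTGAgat
SNORD50B (in SNHG5, chr6:86387307-86387377, minus strand): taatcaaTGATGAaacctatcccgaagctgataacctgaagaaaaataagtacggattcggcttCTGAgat
SNORA73B (in SNHG3, chr1:28835070-28835274, plus strand): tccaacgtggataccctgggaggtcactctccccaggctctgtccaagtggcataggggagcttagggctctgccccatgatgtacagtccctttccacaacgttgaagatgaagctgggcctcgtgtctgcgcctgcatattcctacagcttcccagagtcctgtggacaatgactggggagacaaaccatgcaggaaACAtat

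The C box motif TGATGA was searched in the first 15 bases of each C/D snoRNA on its own strand and the D box motif CTGA in the last 15. TGATGA was found in 15 of the 25 C/D snoRNAs in the host genes (60%), beside 65.9% of the 305 listed SNORD rows for which a strand was found. SNORD47 is among those without these exact letters, and no more can be said from that. CTGA was found in 23 of 25 (92%), beside 91.1% of the same 305. ACA stood in the last 8 bases of 8 of the 9 H/ACA snoRNAs (88.9%), beside 91.9% of 149 SNORA rows.

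Exon structures were taken from the GENCODE transcript, mapped to the same genome sequence, that lay nearest to the deposited transcript of each host with the highest FPKM. These transcripts have 2 to 12 exons, and 32 of the 34 snoRNAs lie wholly in an intron, each in an intron of its own. The exceptions are SNORA103 in GAS5 and SNORA44 in SNHG12, which overlap an exon of the chosen transcript and are intronic in another. The 25 C/D snoRNAs ended a median of 74 bases before the 3′ splice site, and 17 of them ended 60 to 90 bases before it. The range reached 8272 bases, for SNORD12 in the last intron of ZFAS1. The 7 H/ACA snoRNAs placed in an intron ended a median of 303 bases before the 3′ splice site, with a range of 67 to 1331.

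**Figure D1:**
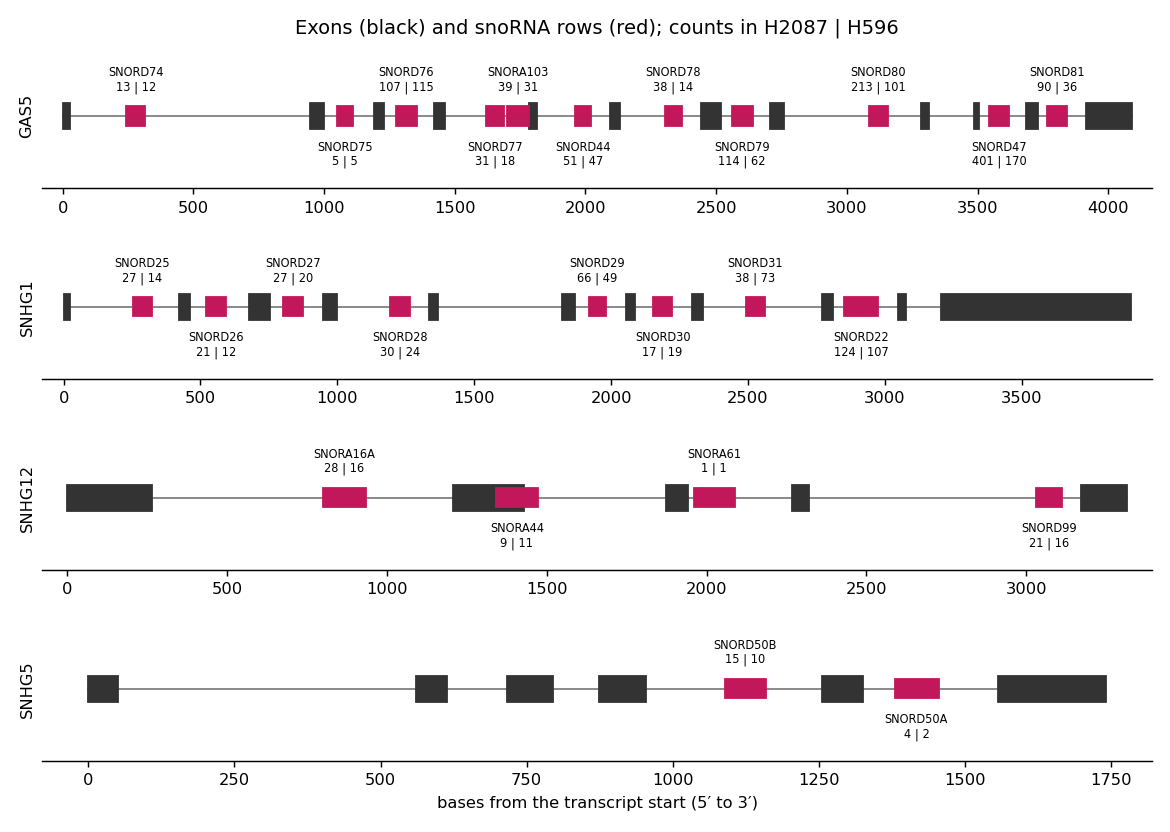
Maps of GAS5, SNHG1, SNHG12 and SNHG5, drawn from the transcript start on the x axis in bases, with exons in black and snoRNA rows in red. The numbers beside each snoRNA are its estimated counts in H2087 and H596, which run from 401 and 170 for SNORD47 in GAS5 to 1 and 1 for SNORA61 in SNHG12.

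GAS5 was the most abundant of the 10 genes in both cell lines, and 7 of the 10 had a lower FPKM in H596 than in H2087. Of these, 4 (GAS5, SNHG6, SNHG7 and SNHG8) were at least 2-fold lower in H596 on the scale of log2(FPKM + 1), and SNHG5 alone was at least 2-fold higher. That is 4 of 10 lower, where 14.2% of the 13048 genes that passed the level filter, a mean FPKM over both libraries of 1 or more, were lower by as much, and 1 of 10 higher, where 18.2% of all genes tested were higher. Against the 4079 genes whose mean FPKM lay within the range of the host genes, 18.6 to 395, these shares were 15% lower and 14.3% higher, a background chosen after the values were seen. The median difference of the 10 genes, H596 minus H2087, was -0.88 on the log2 scale, beside 0.12 over all genes tested and -0.02 in the same level range. A lower FPKM in H596, of any size, was found in 5852 of the 13048 genes tested, beside 7 of the 10 hosts. Added up, the FPKM of the 10 genes came to 1288 in H2087 but 759 in H596. GAS5 held 42.5% of that sum in H2087 and 32.0% in H596. A lower value here is a lower share of a library's RNA, in which fewer expressing cells and less RNA per cell cannot be told apart.

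**Figure D2:**
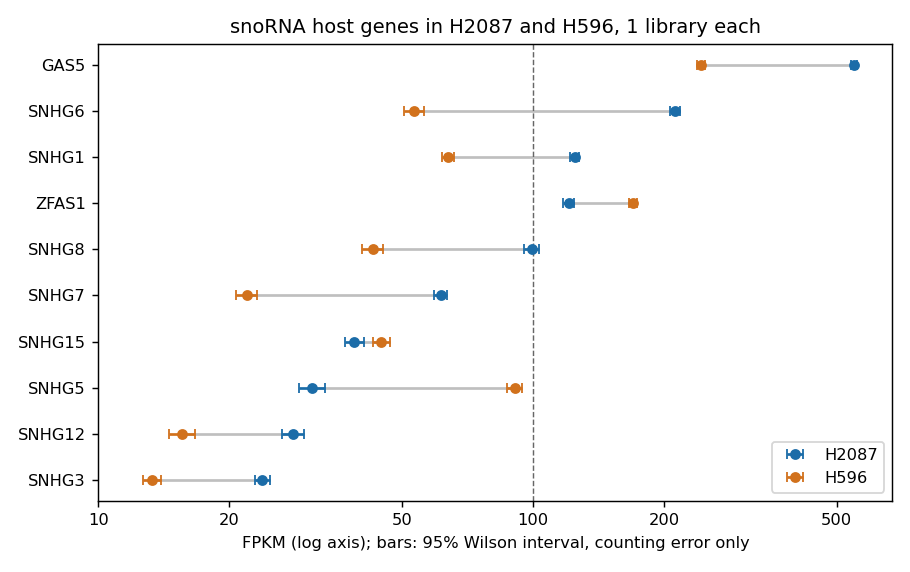
FPKM (log axis) of the 10 host genes in H2087 and H596, 1 library each, with 95% Wilson intervals of the estimated counts as bars, which cover counting error only; the dashed line marks an FPKM of 100. Only SNHG5, ZFAS1 and SNHG15 lie to the right in H596, and SNHG6 spans the widest distance, from 212 down to 53.2.

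GAS5 (gene 60674, chr1:173833039-173837125), named for its accumulation in growth-arrested cells, is listed with 1 transcript of 632 bases. Its FPKM was 547 in H2087 (95% interval, 539 to 556, from 16583 estimated counts) and 243 in H596 (238 to 248, from 8715). H2087 was thus 2.25-fold higher (interval, 2.20 to 2.31), a difference of -1.17 on the log2(FPKM + 1) scale. Among the 7765 noncoding genes other than snoRNAs GAS5 ranked 5 in H2087 and 7 in H596, so it stayed near the top of this class in both libraries. The difference was -0.99 when FPKM was rescaled to TPM, short of 2-fold.

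SNHG6 (gene 641638, chr8:67834165-67837777), host of the C/D snoRNA SNORD87, had the widest difference of the 10. Its FPKM was 212 in H2087 (206 to 218; 4804 counts) and 53.2 in H596 (50.6 to 56.1; 1427 counts). That made it 3.99-fold higher in H2087 (3.76 to 4.23), with a log2 difference of -1.98. It ranked 9 among noncoding genes in H2087 and 24 in H596, and it was past 2-fold under all 8 alternative settings of scaling, filtering and unit. Filtering and the choice of transcript left its value as it was by construction, since a filter only selects genes and SNHG6 lists 1 transcript.

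SNHG7 (gene 84973, chr9:139619046-139622636) hosts the H/ACA snoRNAs SNORA17A and SNORA17B. Its FPKM was 61.3 in H2087 (59.1 to 63.5; 2869 counts) and 21.9 in H596 (20.8 to 23.1; 1300 counts), or 2.79-fold higher in H2087 (2.62 to 2.98). SNHG8 (gene 100093630, chr4:119199917-119200978), host of the H/ACA snoRNA SNORA24 and the shortest locus of the 10 at 1062 bases, was at 99.4 in H2087 (95.5 to 103; 2415 counts) and 42.7 in H596 (40.5 to 45.1; 1315 counts). The log2 differences were -1.44 for SNHG7 and -1.20 for SNHG8. The intervals of both genes lay far apart between the libraries, but SNHG8 was at -0.85 when only NR_003584, its highest transcript, was compared.

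SNHG1 (gene 23642, chr11:62619460-62623360) is the U22 host gene, with 8 C/D snoRNAs in 10 introns. Its FPKM was 125 in H2087 (122 to 128; 6692 counts) and 63.7 in H596 (61.7 to 65.7; 4039 counts). At 1.96-fold higher in H2087 (1.89 to 2.04) and a log2 difference of -0.96 it lay just short of the 2-fold limit. Scaling by TMM, a normalization that trims extreme genes, put it at -1.09, past that limit. SNHG1 is therefore the member closest to the boundary of the count above.

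SNHG3 (gene 8420, chr1:28832455-28837404) and SNHG12 (gene 85028, chr1:28905050-28909495) lie within the same stretch of chromosome 1, and both host H/ACA snoRNAs. SNHG3 had an FPKM of 23.8 in H2087 (22.9 to 24.8; 2565 counts) and 13.3 in H596 (12.7 to 13.9; 1693 counts). SNHG12 was at 28.0 in H2087 (26.4 to 29.7; 1111 counts) and 15.6 in H596 (14.5 to 16.7; 783 counts). These 2 hosts had close differences, -0.80 and -0.81 on the log2 scale, and were the least abundant in H596.

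SNHG5 (gene 387066, chr6:86386725-86388451), which hosts SNORD50A and SNORD50B, went the other way. Its FPKM was 31.0 in H2087 (28.9 to 33.3; 754 counts) and 90.7 in H596 (87.3 to 94.2; 2610 counts), or 2.93-fold higher in H596 (2.70 to 3.17). The log2 difference of 1.52 exceeded that of 90.6% of all genes tested. SNHG5 ranked 41 among noncoding genes in H2087 and 18 in H596, and it kept a difference of at least 1.39 under all 8 alternative settings. Among these, filtering and the choice of transcript could not change it, as SNHG5 also lists 1 transcript.

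ZFAS1 (gene 441951, chr20:47894715-47905795), antisense to the start of ZNFX1 and host of SNORD12, SNORD12B and SNORD12C, was the second most abundant host in H596. Its FPKM was 121 in H2087 (117 to 124; 5042 counts) and 170 in H596 (166 to 174; 8087 counts), or 1.41-fold higher in H596 (1.36 to 1.46). SNHG15 (gene 285958, chr7:45022627-45026259), host of SNORA9, was at 38.8 in H2087 (36.9 to 40.8; 1494 counts) and 44.8 in H596 (42.9 to 46.8; 2041 counts). The log2 differences were 0.49 for ZFAS1 and 0.20 for SNHG15, both short of 2-fold. For SNHG15 the difference was 0.07 under TMM scaling, and for ZFAS1 it was -0.32 when only NR_003604, its transcript with the highest mean FPKM over both libraries, was compared. NR_036658, the ZFAS1 transcript with the highest FPKM in H596, had a difference of 1.38.

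The study took an FPKM of 100 as the mark of a highly expressed gene. In H2087, 4 hosts reached it (GAS5, SNHG6, SNHG1 and ZFAS1), with SNHG8 just under it and an interval that held 100. In H596 only GAS5 and ZFAS1 did, and in TPM, a rescaling by 1 factor per library, the numbers were 6 and 7. The levels of the 10 genes spanned 23.0-fold in H2087 and 18.3-fold in H596. In H2087 the order was GAS5, SNHG6, SNHG1, ZFAS1, SNHG8, SNHG7, SNHG15, SNHG5, SNHG12 and SNHG3, and the intervals of SNHG1 and ZFAS1 and those of SNHG5 and SNHG12 overlapped. In H596 it was GAS5, ZFAS1, SNHG5, SNHG1, SNHG6, SNHG15, SNHG8, SNHG7, SNHG12 and SNHG3, and only SNHG15 and SNHG8 had overlapping intervals. SNHG6 thus stood 2 in the order in H2087 and 5 in H596, whereas SNHG5 stood 8 and 3.

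Ribosomal protein genes were far more abundant than the hosts and were also mostly lower in H596. Of 77 such genes 76 passed the level filter, RPL21 being listed at 0.695 and 0.634. A lower FPKM in H596 was found in 67 of the 76, beside 5852 of the 13048 genes tested. At least 2-fold lower were 21 of the 76 (27.6%) and at least 2-fold higher 0, beside 14.2% and 18.2% of all genes tested. Their median difference was -0.62. The median of the host genes lay 0.27 below it, and this gap was between -0.26 and -0.30 under every setting that moved the medians. TMM, TPM and centring shift every gene alike apart from the effect of the added 1, so they could hardly move the gap. With the highest transcript of each gene, which could, it was -0.30. The hosts were more scattered than the ribosomal protein genes. The standard deviation of the log2 differences was 1.04 over the 10 hosts beside 0.57 over the 76 ribosomal protein genes. Such scatter was not particular to the hosts. Their quartiles were -1.19 and -0.05, beside -0.55 and 0.75 over all genes tested. The 16 further noncoding hosts described below ran from -2.76 to 3.77. SNHG6 lay below all 76 ribosomal protein differences and SNHG5 above all 76, while ZFAS1 was exceeded by 1 and SNHG15 by 5. Extremes of the ribosomal protein genes were RPS26, at 287 in H2087 and 80.3 in H596, and RPS23, at 393 and 111, on the lower side. RPS19, at 379 and 632, was furthest on the higher side. RPS18 was the highest in H2087, at 3071, and RPL28 the lowest of those tested, at 179, so only GAS5 and SNHG6 among the hosts exceeded any ribosomal protein gene there. Ribosomal protein genes that hold a snoRNA row themselves did much as the rest did, with a median of -0.58 over 26 genes (7 at least 2-fold lower) beside -0.64 over 50 without (14 lower). Many ribosomal protein genes have near-identical copies, and how the authors divided reads among them is not stated. Of all estimated counts the hosts took 0.0944% in H2087 and 0.0578% in H596, and ribosomal protein genes 7.40% and 4.68%.

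**Figure D3:**
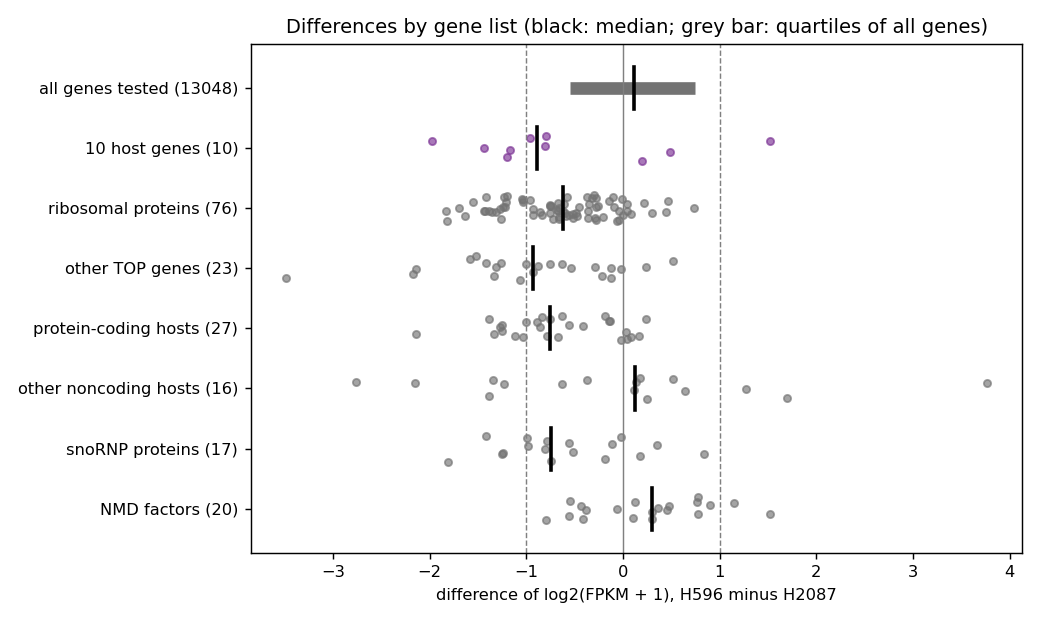
Difference of log2(FPKM + 1), H596 minus H2087, for each gene of 7 lists with the number tested in brackets; black bars are medians, the grey bar spans the quartiles of all genes tested, and dashed lines mark 2-fold. The 10 host genes run from -1.98 for SNHG6 to 1.52 for SNHG5, wider than the range of the 76 ribosomal protein genes, -1.83 to 0.74. The 16 other noncoding hosts run wider still, from -2.76 to 3.77.

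Other genes that carry snoRNAs were compared as lists. Of 16 further noncoding hosts tested, 5 were at least 2-fold lower in H596 (31.25%) and 3 at least 2-fold higher (18.75%). Over all genes tested these shares were 14.2% and 18.2%. The median of these hosts was 0.12, close to that of all genes. SNHG4 had an FPKM of 34.6 in H2087 but 4.25 in H596, and SNHG14, a long transcript of an imprinted snoRNA cluster, at 4.91 and 0.326. On the other side SNHG18 was listed at 0 in H2087 and at 12.7 in H596, and SNHG11 at 5.54 and 20.2. MEG8, SNHG22, SNHG26 and SNHG28 were also listed but lay below the level filter. The 972 noncoding genes other than snoRNAs and the 10 hosts were at least 2-fold higher in 23.7% and lower in 14.5% of cases. Of 27 host genes listed for their protein-coding or related transcripts, 9 were at least 2-fold lower (33.3%, beside 14.2% of all genes tested) and 0 higher, with a median of -0.75. RACK1, a ribosome-bound scaffold protein, was at 2887 and 653, and the helicase EIF4A1 at 896 and 342. TPT1, at 274 and 323, and CHD8, at 20.5 and 23.2, had the highest differences of that list.

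Genes of translation and of snoRNA metabolism were taken as the pathway of the hosts. Of 23 further TOP genes, 11 were at least 2-fold lower (47.8%) and 0 higher, beside 14.2% and 18.2% of all genes tested, with a median of -0.93 beside 0.12. EIF4B, an initiation factor, was at 849 in H2087 and 74.9 in H596, and the nucleolar protein NPM1 at 1911 and 423, whereas UXT was at 51.6 and 74.5. TPT1, RACK1, EEF1A1, EEF1B2 and EEF2 stand both in this list and in that of the protein-coding hosts. NOP56, NOP58 and DKC1 stand both among the protein-coding hosts and among the snoRNA particle proteins given next. The counts of these lists are therefore not separate. Of 17 proteins of snoRNA particles and their assembly, 4 were at least 2-fold lower (23.5%) and 0 higher, with a median of -0.74. Over all genes tested these shares were 14.2% and 18.2%. The H/ACA core proteins NHP2, at 190 and 53.4, and GAR1, at 27.4 and 9.63, had the lowest differences. Other proteins of that core were nearly level. Dyskerin (DKC1) was at 53.5 and 46.9, a difference of -0.18, and NOP10 at 166 and 164, a difference of -0.02. DKC1 and NOP10 were named after their values were seen. Fibrillarin (FBL), the methyltransferase of the C/D class, was at 216 and 109, a difference of -0.98 that stayed short of 2-fold, and was named after its values were seen. PIH1D1, an assembly factor, was at 21.6 and 39.3, and ZNHIT3 at 22.2 and 28.7.

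Of 20 NMD factors, 13 had a higher FPKM in H596, as did 7196 of the 13048 genes tested. At least 2-fold higher in H596 were 2 (10%) and lower 0, beside 18.2% and 14.2% of all genes tested, and the median was 0.30 beside 0.12. SMG9, a regulator of the SMG1 kinase, had an FPKM of 1.78 in H2087 but 7.001 in H596, and the exonuclease XRN1 at 4.68 and 11.6. The release factors ETF1, at 73.5 and 42.1, and GSPT1, at 40.4 and 27.2, had the lowest differences. Of 15 regulators linked to ribosome production and TOP translation, 3 were at least 2-fold lower (20%, beside 14.2% of all genes tested) and 0 higher, with a median of -0.26. MYC, a transcription factor that drives ribosome biogenesis, was at 225 and 39.5, and the translation repressor EIF4EBP1 at 189 and 71.6. LARP1, a protein that binds TOP mRNAs, was at 86.2 and 36.3 and was named after its values were seen. MTOR, at 11.7 and 19.0, and TSC1, at 4.06 and 7.26, had the highest differences. No relation between these genes and the host genes can be tested with 1 library per cell line.

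Promoter sequences of 8 of the 10 genes were matched in a RefSeq table of assembly GRCh38.p14, which gives 250 bases before and 50 bases from the annotated start of each gene. SNHG6 and SNHG15 were the other two. Windows of 40 bases before and 20 from the start are shown for SNHG5 and ZFAS1, which were higher in H596, and for SNHG7, GAS5 and SNHG12, which were lower. Capitals mark TATAA and the pyrimidine run at the start, on the strand of the gene.
SNHG5 (chr6:85678714-85678773, minus strand): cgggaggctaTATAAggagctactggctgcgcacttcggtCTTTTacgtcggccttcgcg
SNHG7 (chr9:136728165-136728224, minus strand): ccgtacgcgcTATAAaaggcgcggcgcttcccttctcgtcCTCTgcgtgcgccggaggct
GAS5 (chr1:173869026-173869085, minus strand): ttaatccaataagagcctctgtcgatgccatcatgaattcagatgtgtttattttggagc
ZFAS1 (chr20:49278602-49278661, plus strand): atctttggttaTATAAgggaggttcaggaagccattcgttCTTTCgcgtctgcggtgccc
SNHG12 (chr1:28581854-28581913, minus strand): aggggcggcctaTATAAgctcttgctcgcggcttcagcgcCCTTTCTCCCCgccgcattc

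TATAA, searched on the strand of the gene with its first base 40 to 20 bases before the start, was found in 5 of the 8 promoters (SNHG5, SNHG7, SNHG8, SNHG12 and ZFAS1). The share was 9.68% of 62 ribosomal protein promoters and 4.22% of 27305 promoters. Of these 5 hosts, SNHG5 and ZFAS1 had a higher FPKM in H596 and the other three a lower one. The 3 matched hosts without it, SNHG1, SNHG3 and GAS5, all had a lower FPKM in H596. A run of at least 5 pyrimidines that opens with C at the annotated start, as in a TOP tract, was found in 3 of 8 (SNHG5, SNHG12 and ZFAS1), beside 67.7% of ribosomal protein promoters and 4.04% of all. A first base of C alone was found in 6 of 8, beside 74.2% and 14.99%. CACGTG, which reads alike on both strands and was searched in the whole window, was found in 1 of 8 (SNHG7), beside 4.84% and 7.43%. All of these depend on the annotated start, and for GAS5 that start was an A. The GAS5 sequence had 37.7% G or C, beside a median of 62.2% over the 8 hosts. GAS5 and SNHG1, named above as beginning with a TOP tract, had no such run at these starts. Whether the starts are those of the deposited transcripts was not checked, since the builds differ. A motif missing here is therefore not shown to be missing from the promoter of the measured transcript.

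Transcripts were compared in the 5 host genes that list more than 1. ZFAS1 had the clearest shift in make-up. Its transcript NR_003604 had an FPKM of 62.0 in H2087 but 49.5 in H596, or 51.4% and 29.2% of the gene's summed FPKM. NR_036658 was at 25.9 and 69.1, or 21.5% and 40.7%, so the leading transcript was another in each library. NR_036659 was at 27.5 and 45.0, which is 22.8% and 26.5%. The higher level of ZFAS1 in H596 lay mainly in NR_036658 and NR_036659 and not in NR_003604.

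In SNHG8, the transcript NR_003584 made up 58.3% of the FPKM in H2087 and 74.2% in H596. NR_034010 held 16.2% and 5.93%, with levels of 16.1 and 2.53. SNHG12, with 8 transcripts, was led by NR_024127 in both libraries, at 49.1% and 39.1%, and NR_146383 held 18.8% and 9.89%. In the same gene NR_146381 was higher in H596, at 2.36 beside 1.52, although the gene as a whole was lower. SNHG7 kept its leading transcript NR_024542 at 73.8% and 74.3%, and its longest one, NR_003672, stood at 1.81 and 1.77, level while the gene was 2.79-fold apart. SNHG3 was almost entirely NR_002909, at 93.4% and 93.7%. The transcripts of a gene share most of their exons, and how reads were divided among them was estimated by the authors' program, so the intervals of the genes do not hold for these shares.

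**Figure D4:**
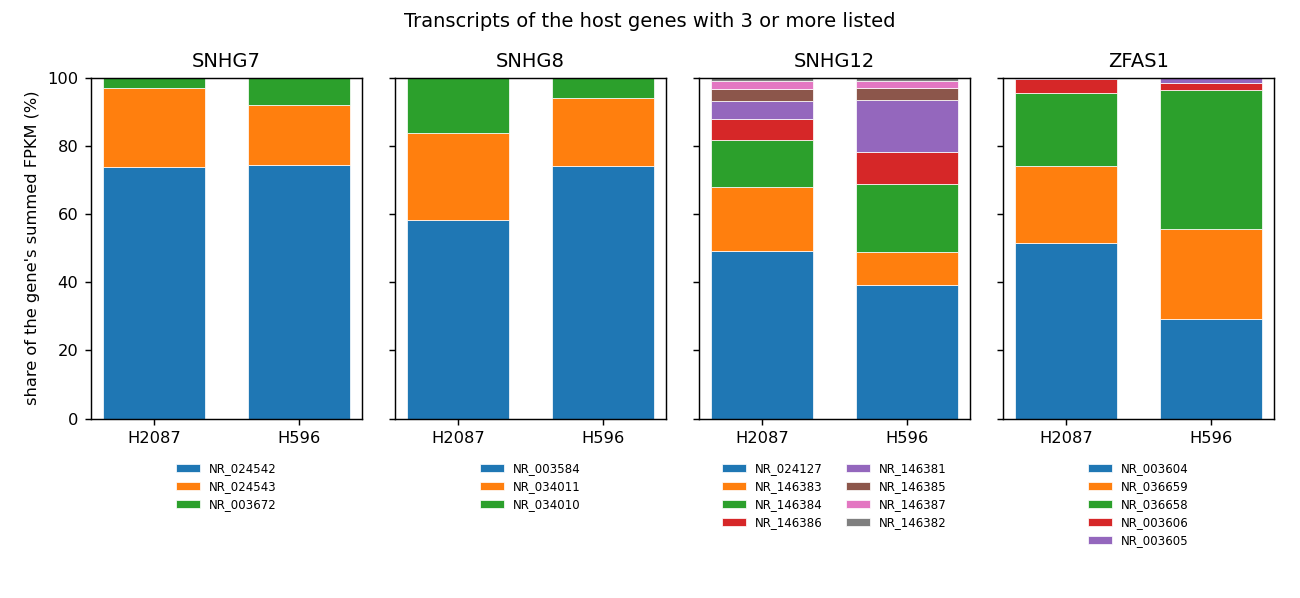
Share of each gene's summed FPKM (percent, y axis) held by each deposited transcript of SNHG7, SNHG8, SNHG12 and ZFAS1 in H2087 and H596, 1 library each. In ZFAS1 the blue segment, NR_003604, goes from 51.4% to 29.2% while the green segment, NR_036658, goes from 21.5% to 40.7%.

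Mature snoRNAs carry no poly(A) tail, and in these libraries of polyadenylated RNA the snoRNA rows themselves had low counts. None of the 34 was at 0, and counts ran from 1 to 401 in H2087 and from 1 to 170 in H596, with sums of 1735 and 1158. The median was 29 counts in H2087 and 18.5 in H596. Over all 552 rows named as snoRNAs or small Cajal body RNAs 307 had a count in H2087, and the median there was 1. Relative to the total count, 29 of the 34 were higher in H2087 and 5 in H596. H596 had the larger total, so rows with equal counts, such as SNORD75 with 5 in each library, fall on the H2087 side. By FPKM, SNORA17A, SNORA17B and SNORA61, with 1 count in each library, were higher in H596. GAS5 and SNHG1 alone hold 11 and 8 of the 34 rows, and the same share over all 552 rows was not computed. Mature snoRNA, unspliced host RNA and retained introns cannot be told apart in such rows.

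In GAS5 the snoRNA rows ranged widely, from 5 counts in both libraries for SNORD75 to the 401 and 170 of SNORD47, the sequence given above with only a D box match. SNORD80 had 213 and 101, and SNORD79 had 114 and 62. SNORD76 had 107 and 115, and SNORD74 had 13 and 12. In SNHG1, SNORD22 had 124 and 107 counts, SNORD29 had 66 and 49, and SNORD31 went the other way, at 38 and 73. SNORA73B in SNHG3 had 55 and 13, and SNORD12 in ZFAS1 had 11 and 34. For the remaining rows the counts lay between 1 and 90 in H2087.

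The counts of the snoRNA rows were also set against those of their host. In GAS5 they held 6.23% of the counts of host and snoRNA rows in H2087 (95% Wilson interval, 5.88 to 6.60) and 6.55% in H596 (6.07 to 7.07), and the intervals overlapped. SNHG12 had 5.04% and 5.32%, SNHG8 had 1.67% and 2.01%, SNHG15 had 2.03% and 2.48%, and ZFAS1 had 0.454% and 0.578%, all with overlapping intervals, as for SNHG7 with 2 counts in each library. In these genes a difference in share was not detectable at this depth. The intervals were apart in 4 genes. In SNHG1 the share was 4.97% (4.49 to 5.50) in H2087 and 7.30% (6.56 to 8.11) in H596, and in SNHG6 it was 1.09% (0.835 to 1.42) and 2.19% (1.56 to 3.08). SNHG3 went the other way, from 2.10% (1.62 to 2.72) to 0.762% (0.446 to 1.299). SNHG5 did too, with 2.46% (1.58 to 3.81) and 0.458% (0.262 to 0.798), where its snoRNA rows had 19 counts in H2087 and 12 in H596 and its own counts were 754 and 2610. In that gene SNORD50A had 4 and 2 counts and SNORD50B had 15 and 10. In the other hosts with a higher FPKM in H596 the summed snoRNA counts were higher there, at 31 and 52 in SNHG15 and at 23 and 47 in ZFAS1. Relative to the total count this was 1.42-fold for SNHG15 (0.915 to 2.21) and 1.73-fold for ZFAS1 (1.06 to 2.84). The interval of SNHG15 includes no difference. These intervals cover counting error only, and they are too narrow if reads of the same molecule were counted more than once.

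**Figure D5:**
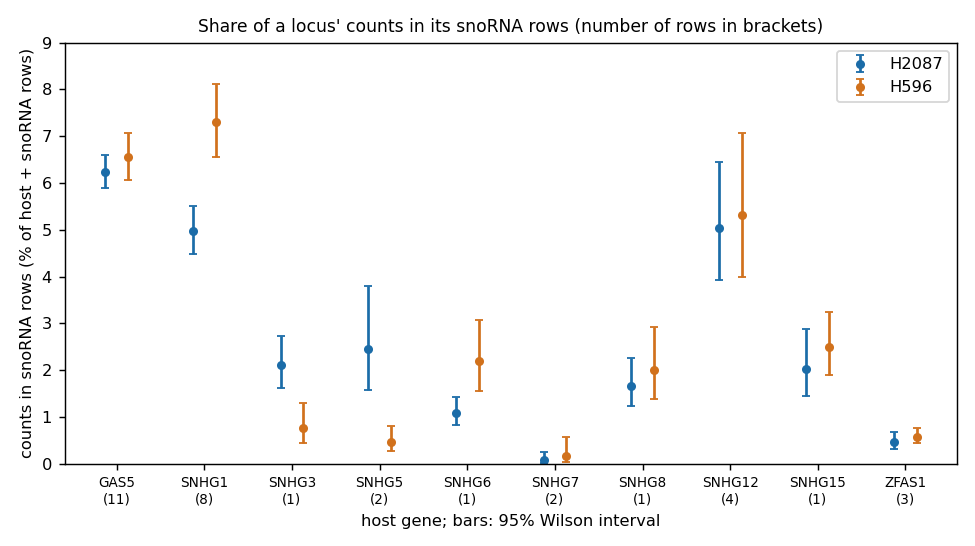
Estimated counts in the snoRNA rows as a percentage of host and snoRNA counts (y axis) for each host gene in H2087 and H596, with 95% Wilson intervals of counting error as bars and the number of snoRNA rows in brackets. The intervals of the libraries lie apart in SNHG1 and SNHG6, higher in H596, and in SNHG3 and SNHG5, higher in H2087.

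The genes next to each host, and those overlapping it, were read from the deposited positions in hg19. Of 26 such pairs 17 had a neighbour above the level filter, and the neighbour's difference had the sign of its host in 8 and the opposite sign in 9. Genes that start back to back with a host include neighbours with the opposite and with the same sign. ZBTB37 begins 94 bases from GAS5 and had an FPKM of 1.02 in H2087 but 1.799 in H596. SLC3A2, the heavy chain of amino acid transporters, begins 123 bases from SNHG1 and was at 169 and 314, where SNHG1 was at 125 and 63.7. ZNFX1, whose start shares 42 bases with ZFAS1 on the other strand, was at 8.80 and 52.7, a log2 difference of 2.45 beside 0.49 for ZFAS1, so that pair had the same sign.

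SNHG3 lies wholly within RCC1, a gene for a chromatin-bound exchange factor, on the same strand and with the same start. RCC1 was at 74.7 in H2087 and 41.5 in H596, a log2 difference of -0.83 beside -0.80 for SNHG3, and how shared reads were divided between them is not stated. PRSS12 ends 214 bases from the end of SNHG8 on the other strand and was at 1.28 and 11.04, opposite to SNHG8. FAM69B shares 125 bases with SNHG7 and was at 3.63 and 1.34, and MCMDC2 shares 119 bases with SNHG6 and was at 0.581 and 0.898. GAS5-AS1 shares 41 bases with GAS5 and was at 0.241 and 0.749, and TRNAU1AP shares 8 with SNHG12 and was at 12.2 and 13.1. The levels of these overlapping neighbours were all below those of their hosts except in RCC1. Whether counting used strand is not stated, so reads in the shared bases cannot be assigned with certainty.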

How the data were processed

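RNA-seq data of 1 H2087 and 1 H596 library were processed. Per the labels and the study's methods, the authors used bcl2fastq 1.8.4, Trimmomatic, HISAT2 2.0.5 on hg19 and StringTie 1.3.3b with RefSeq transcripts. The authors deposited an estimated count, given as whole numbers, and an FPKM value for every gene and transcript in each library, and the deposited transcript table also gives each length and position. How the estimated counts were made, whether mates were counted and whether strand was used are not given in the sources used here.

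From these, log2(FPKM + 1) of H2087 was subtracted from that of H596 for every gene whose mean FPKM over both libraries was 1 or more, and a result of at least 1 in size counted as 2-fold. On this scale differences of low genes are understated. The share that a gene took of a library's estimated counts was given a 95% Wilson interval, which was scaled to FPKM and covers counting error only. PCR copies are not independent molecules. With 1 library per cell line no p-value was computed. The members, lists and settings were chosen with earlier results of these data known. Named were all 10 hosts with their transcripts, snoRNA rows and neighbours, the highest and lowest ribosomal protein gene in H2087, and the 2 largest differences in each direction of every list, of which 1 ribosomal protein gene is not reported here. The genes named to check the labelled tumor type were chosen after their values were seen. Alternatives were a pseudocount of 0.1, no filter, a mean FPKM of at least 10, TMM scaling (edgeR 4.0.16 in R 4.3.3), TPM, centring, the transcript of each gene with the highest mean FPKM over both libraries, counts scaled to library size, 1.5-fold, and FPKM thresholds of 50 and 200. Calls and intervals were tested on simulated counts with counting error only. The intervals assume that same error, so the simulation could not show variation between cultures or the effect of PCR copies. Exons were from GENCODE on GRCh37. Promoters, in another build, were never joined by position. Python 3.11.15, numpy 2.4.6, pandas 2.3.3 and matplotlib 3.10.9 were used.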

Additional observations from a re-analysis of the deposited data

How the results depend on the processing

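The median difference of the 10 host genes was -0.88 and moved to -1.01 under TMM scaling, -0.72 in TPM and -1.001 after centring on all genes tested. That of the ribosomal protein genes was -0.62 and moved to -0.75, -0.43 and -0.73. The same settings moved the median of all genes from 0.12 to 0.00 under TMM and centring and to 0.29 in TPM, so the distance of the hosts from it is the value to read. The shares of genes at least 2-fold higher and lower were 18.2% and 14.2% as reported, 15.6% and 16.4% under TMM, 24.9% and 13.9% in TPM, and 15.7% and 16.2% after centring. The number of hosts at least 2-fold lower, 4 as reported, was 5 under TMM and centring, 3 in TPM and 7 at 1.5-fold, and the number higher was 1 throughout. Hosts at an FPKM of 100 numbered 4 in H2087, with 6 in TPM, 3 by the highest transcript, 6 at a threshold of 50 and 2 at 200. In H596 they numbered 2, with 7 in TPM, 1 by the highest transcript, 5 at a threshold of 50 and 1 at 200. Of 80 recomputed differences of single hosts 79 kept their sign, and the exception was ZFAS1 by the transcript with the highest mean over both libraries, at -0.32. Many of the 80, and of the settings counted next, could not change. A level filter leaves the difference of a host as it was, as does the highest transcript where a host lists only 1. SNHG5, SNHG6 and SNHG7 passed 2-fold in 8 of 8 settings, GAS5 and SNHG8 in 7, SNHG1 in 2 and SNHG12 in 1. By the highest transcript the 4 lower hosts included SNHG12, at -1.06, and not SNHG8. The shifts under TMM, TPM and centring are the same for every gene up to the pseudocount.

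No paired analysis was possible because H2087 and H596 were sequenced once each, which also leaves no replicate to omit. Counting error is small beside the differences of most hosts, but variation between cultures is unknown.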
